A study of Homo sapiens with 4 samples.

Results

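KDM4C peaks in control and ARID3B-edited OECM1 cells were compared by position. The KDM4C-antibody lists held 1341 control and 1742 edited peaks on chromosomes 1 to 22, or 3083 of the 11483 peaks of the whole study, and every one of these rows was used. A peak was called kept when it overlapped a peak of the other list by at least 1 bp, lost when a control peak had no such partner, and gained when an edited peak had none. Beyond the caller's own cutoff, no measured value was used to choose among these peaks.

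KDM4C is a histone demethylase of the Jumonji family, which removes methyl groups from lysines of histone tails, among them a mark typical of silenced chromatin. Such silenced chromatin is densest around centromeres, where the sequence consists of long arrays of satellite repeats. ARID3B binds AT-rich DNA through an AT-rich interaction domain, and the title of the study asks where KDM4C lies when ARID3B is missing.

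OECM1 is an established line of cancer cells from the head and neck. Control cells carried Cas9 with a control construct (Cas9-ctrl) and edited cells carried Cas9 directed at ARID3B (ARID3B-Cas9), so both had received Cas9. Chromatin was isolated with a KDM4C antibody or, in separate libraries of the same kinds of cells, with an ARID3B antibody, which gave 4 groups of 1 library. The titles of samples and series differ, naming a knockdown and a knockout, and whether edited cells were a pool or a clone is not given in the sources used here. No group had a replicate, so no difference below has a replicate check and no test was made, and the 95% intervals (exact Clopper-Pearson for shares, exact binomial for ratios of peak numbers) cover counting error only. After removal of tags at repeated positions, 20668533 KDM4C tags remained from control cells and 16209985 from edited cells, and 0.415% and 0.512% of these lay in autosomal peaks.

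Most KDM4C peaks were found in only 1 of the lists, and the few found in both held most of the tags. Of the 1341 control peaks, 456 were kept (34.0%, 31.5 to 36.6) and 885 were lost (66.0%). Of the 1742 edited peaks, 435 were kept (25.0%, 23.0 to 27.1) and 1307 were gained (75.0%). Kept peaks accounted for 75.6% of all peak tags in the control library and 73.4% in the edited library, although they were the smaller part of each list. The edited list was the longer, at 1.30 times the control number (1.209 to 1.396), from 0.784 times as many filtered tags.

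Kept peaks were large and lost and gained peaks were small. The median kept control peak had 38 tags, a length of 412 bp and a score of 113, where the score is minus the log10 of the caller's p-value multiplied by 10 and a peak needs at least 50. The median lost peak had 11 tags, 250 bp and a score of 54.8. The median gained peak had 11 tags, 278 bp and a score of 54.9, and so resembled the lost peaks rather than the kept ones. Scores under 60 were found for 75.8% of the lost and 75.6% of the gained peaks, against 11.6% of the kept control peaks. No peak in either list had fewer than 9 tags, so the typical lost or gained peak stood 2 tags above the smallest one called.

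**Figure D1:**
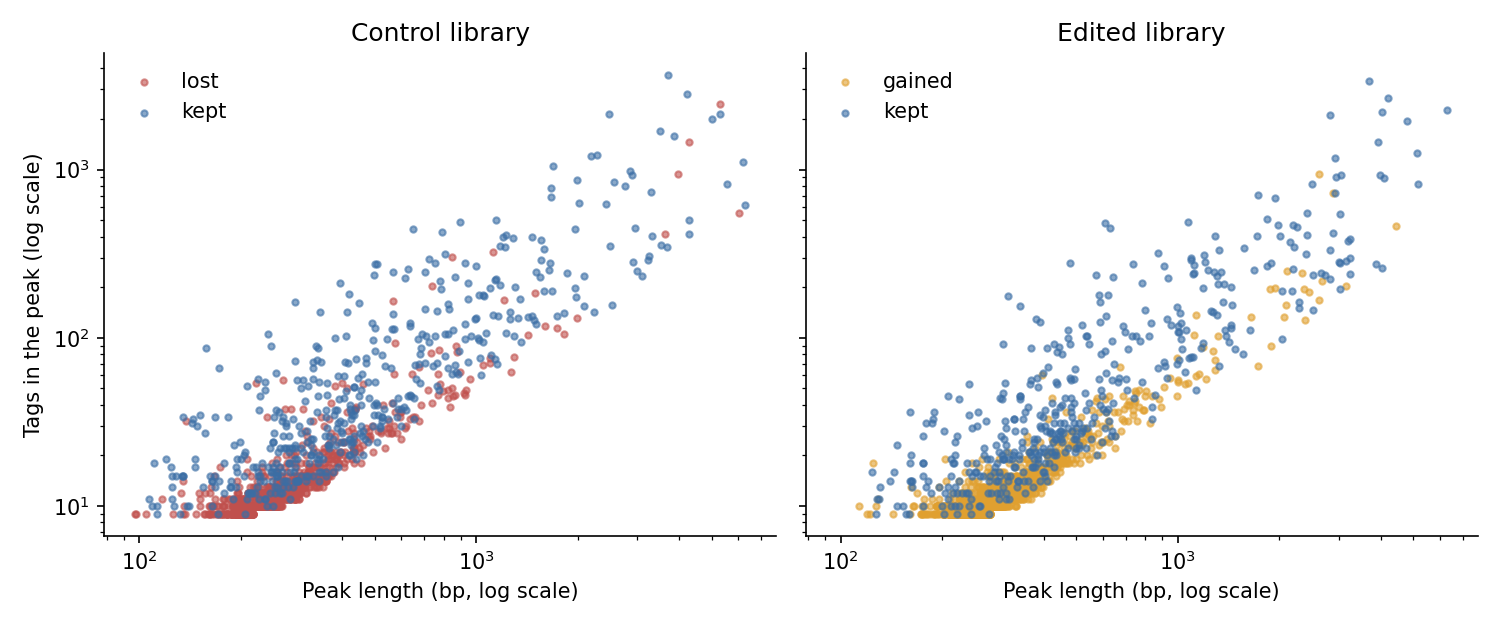
Tags per peak against peak length (both on log scales) for each KDM4C peak of the control library (left, lost in red, kept in blue) and of the edited library (right, gained in orange, kept in blue). Lost and gained peaks crowd along the lower edge of the cloud, at medians of 11 tags and 250 or 278 bp, while kept control peaks have a median of 38 tags.

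The share of peaks kept rose with the score in both lists. Among control peaks it was 7.32% (53 of 724) for scores from 50 to 60, 33.1% (86 of 260) from 60 to 80 and 67.1% (53 of 79) from 80 to 100. From 100 to 200 it was 92.9% (145 of 156), and at 200 or more it was 97.5% (119 of 122). Among edited peaks the same classes gave 4.63%, 24.5%, 58.7%, 89.5% and 100% (110 of 110). At the calling threshold itself, with scores under 52, 10 of 239 control and 7 of 365 edited peaks were kept.

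Fold enrichment, the height of a summit over the caller's local background, gave another order. Of control peaks with a fold enrichment of 20 or more, 71 of 72 were kept, and of those from 8 to 10, 63 of 369 (17.1%). Below 5, however, the share was 54.4% (49 of 90, 43.6 to 65.0). These peaks of low fold enrichment were long and rich in tags, with medians of 1054.5 bp and 95.5 tags, and 54 of the 90 lay within 5 Mb of a centromere gap of the assembly. Edited peaks showed the same dip, from 48.5% below 5 to 12.3% from 8 to 10 and 100% (74 of 74) at 20 or more. The shortest peaks also broke a steady rise with length. Control peaks under 200 bp were kept in 30.4% of cases (51 of 168), those from 200 to 300 bp in 15.6% (99 of 633) and those of 1000 bp or longer in 83.6% (92 of 110).

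**Figure D2:**
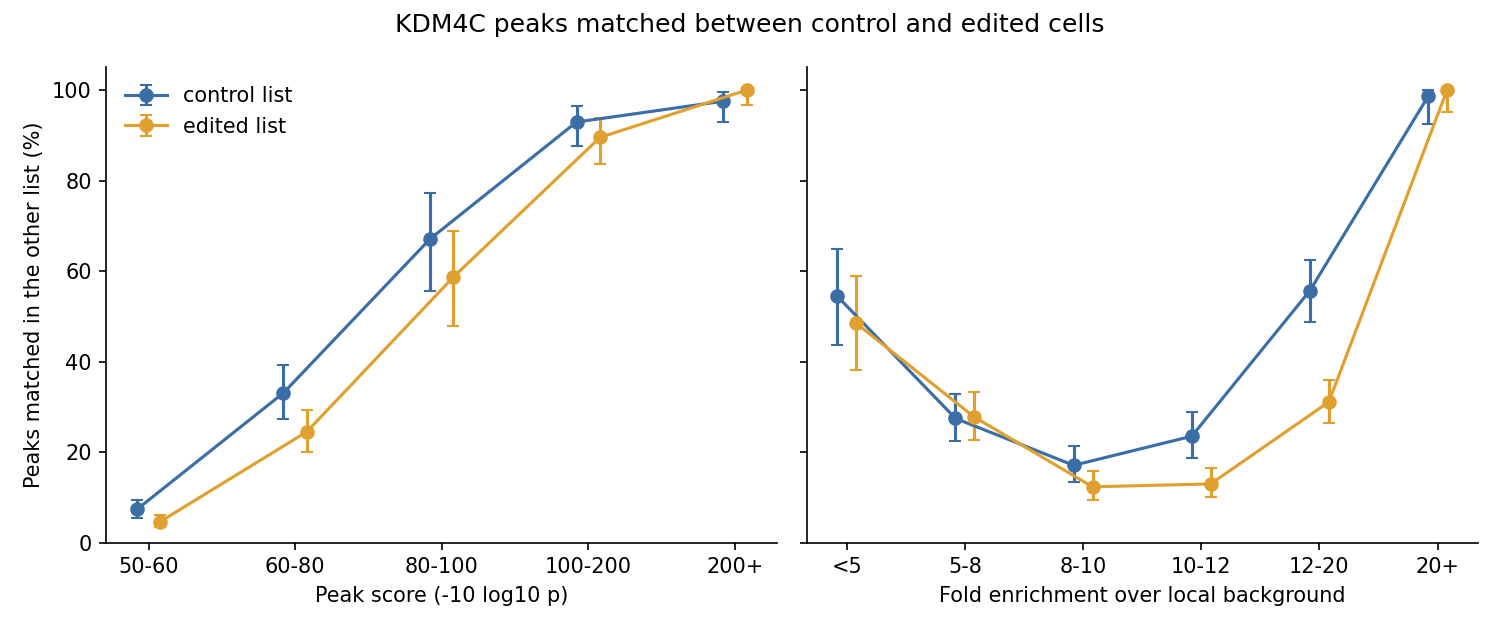
Share of KDM4C peaks matched in the other list by peak score (left) and by fold enrichment (right), for the control list (blue) and the edited list (orange); bars are exact 95% intervals for counting error. The share climbs with score from 7.32% to 97.5% of control peaks, whereas it falls and then rises with fold enrichment, with its lowest control value of 17.1% from 8 to 10.

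Depth differed between the libraries. Scaling for depth takes the tags in a peak to fall in proportion to it. At the 394 kept pairs of 1 control and 1 edited peak, however, unscaled tags had a median log2 ratio of edited to control of -0.0080. Scaled by the ratio of filtered tags, 450 of the 885 lost peaks (50.8%) would have had fewer tags in the edited library than its smallest peak, against 20 of the 456 kept ones. Among the control peaks that reached that number, a limit chosen after seeing the data, 50.1% (436 of 871) were kept. The 1307 gained peaks could not show such a shortfall, since the control library was the deeper one and the smallest peak had 9 tags in both lists. Tags were 75 bp long in the control library and 72 bp in the edited one, the tags before removal of repeated positions numbered 25834248 and 18015732, and the part of these differences in the results was not tested.

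Most lost and gained peaks had no peak of the other list in their surroundings. A peak of the edited list lay within 1 kb of 38 of the 885 lost peaks (4.29%) and within 10 kb of 118 (13.3%), and the median distance was 326 kb. For gained peaks the counts were 31 of 1307 (2.37%) within 1 kb and 89 (6.81%) within 10 kb, with a median of 654 kb. Kept peaks lay close to further peaks of their own list, at a median of 4.76 kb in the control library, against 599 kb for lost peaks. Gained peaks stood 368 kb from the nearest peak of the edited list.

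The 464 overlapping pairs formed 427 groups, and 394 of these (92.3%) joined 1 control peak with 1 edited peak. In 25 groups several control peaks fell into 1 edited peak, and in 6 groups 1 control peak met several edited ones. Within the 394 pairs the summits lay a median of 12 bp apart and within 50 bp of each other in 316 (80.2%). Edited peaks were the longer ones in 247 pairs and the shorter ones in 143, with medians of 429.5 and 381 bp. The caller's fragment length was also longer in the edited library, at 95 against 82 bp.

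Tag numbers of kept peaks were nearly the same in both libraries before any scaling. The edited library had more tags in 174 pairs, fewer in 199 and as many in 21, and the median log2 ratio of edited to control tags was -0.0080. Scaled to tags per 1000000 filtered tags, the median log2 ratio was 0.34 (quartiles 0.06 and 0.60), with 315 pairs higher in edited cells and 79 higher in control cells. The ratio of the depths alone amounts to 0.35 on that scale. A difference of at least 2-fold after this scaling was found in 29 pairs, 23 higher in edited cells (5.84% of pairs) and 6 lower (1.52%). The direction of these counts rests on the scaling, since unscaled tags were at least 2-fold higher in edited cells in 8 pairs and lower in 11. Across the 394 pairs the tag numbers of the libraries had a Spearman rho of 0.93, a description of sites whose tag numbers also depend on peak length.

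**Figure D3:**
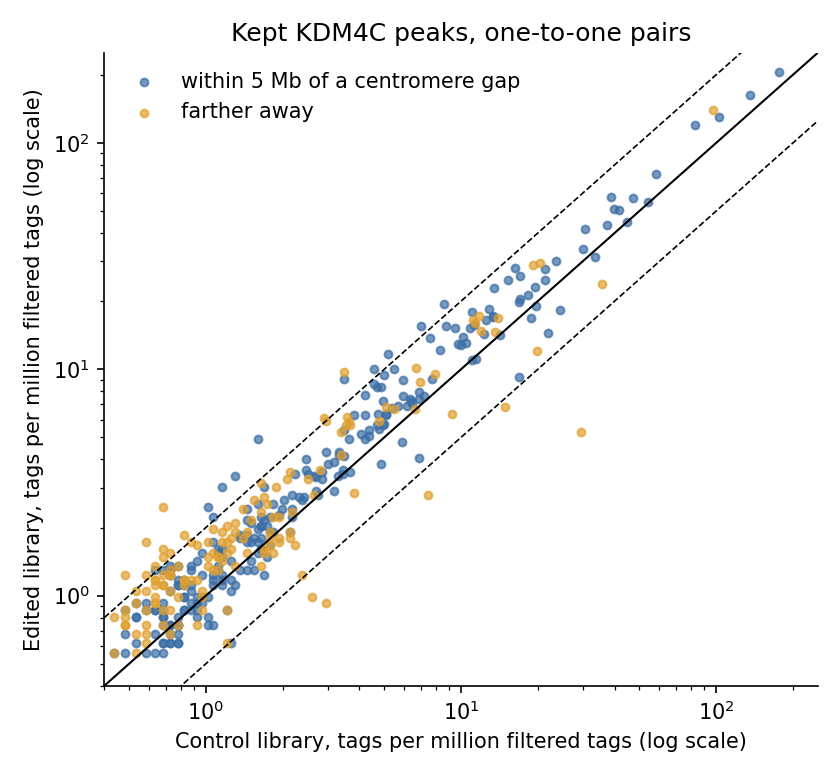
Tags per 1000000 filtered tags in the control library (x) and the edited library (y), both on log scales, for 394 kept one-to-one pairs of KDM4C peaks; blue pairs lie within 5 Mb of a centromere gap and orange pairs farther away. The solid line marks equal values and the dashed lines a 2-fold difference, which 29 pairs reach.

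The 10 leading kept control peaks were ranked by the lower of their control and edited scores. Of these 10, 8 lay within 5 Mb of a centromere gap. The region on chromosome 6 from 58776198 to 58779895 (GRCh37, control coordinates throughout for kept peaks) had the most tags, 3656 in control and 3356 in edited cells, with low fold enrichments (3.43 and 3.62). Beside the gap of chromosome 1, from 121482995 to 121485464, there were 2131 and 2103 tags. Both reached the maximum score of 3100 in both libraries, and they lay 0.020 and 0.015 Mb from the gap. The region of chromosome 7 between 61967153 and 61971381 had 2806 and 2651 tags. On chromosome 9 there were 275 and 278 tags between 66970938 and 66971446, and 276 and 275 between 69710866 and 69711365. At each of these regions the unscaled tag numbers were close, from libraries of different depth. Only 1 tag was allowed per position, which can limit tag numbers at regions as dense as these. Peaks were also called without an input library. Tags that gather there without the antibody therefore cannot be told apart from KDM4C binding. Away from the centromeres, the region on chromosome 2 from 109815646 to 109816435, at 14.5 Mb from the gap, had 423 and 479 tags and fold enrichments of 23.1 and 21.7. On chromosome 10 the control list had neighbouring peaks from 42596690 to 42598978 (1218 tags) and from 42599033 to 42600725 (1058 tags), where the edited list had 1 peak with 2215 tags. The pair on chromosome 3 from 196625546 to 196625834, at 103 Mb from the gap, had 163 and 155 tags and fold enrichments of 68.0 and 66.0, the highest of these 10. All 10 leading kept control peaks were also called with the ARID3B antibody in both kinds of cells, as were 246 of those 264 (93.2%).

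Of the 456 kept control peaks, 299 lay within 5 Mb of a centromere gap (65.6%, 61.0 to 69.9), against 237 of the 885 lost peaks (26.8%, 23.9 to 29.8) and 244 of the 1307 gained peaks (18.7%, 16.6 to 20.9). Over all peaks, 536 of 1341 control and 523 of 1742 edited peaks lay that close. The median kept control peak lay 1.399 Mb from a gap, the median lost peak 26.3 Mb and the median gained peak 32.5 Mb. Among control peaks of like score the difference remained for scores under 100. For scores under 60, 36 of 177 peaks near a gap were kept (20.3%, 14.67 to 27.03) and 17 of 547 elsewhere (3.11%, 1.82 to 4.93). From 60 to 100 the counts were 86 of 171 (50.3%) and 53 of 168 (31.5%). Peaks near a gap also had more tags, with medians of 14 against 10 under 60 and 22 against 14 from 60 to 100. The part of tag numbers and depth in this difference was not tested. For scores of 100 or more, 94.1% (177 of 188) and 96.7% (87 of 90) were kept. The number of peaks near the gaps was nearly equal in both libraries, at 536 and 523 (ratio 0.976, 0.863 to 1.10), so that the longer edited list came from the rest of the autosomes, with 805 and 1219 peaks (1.51, 1.38 to 1.66).

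The 1 Mb windows with most kept peaks adjoined or lay close to centromere gaps as well. On chromosome 4 from 49000001 to 50000000, 25 control peaks were kept and 9 lost, and 5 peaks were gained. On chromosome 1 from 121000001 to 122000000, the numbers were 15 kept, 10 lost and 2 gained, and chromosome 16 from 33000001 to 34000000 had 15, 5 and 11. The window with most lost peaks was on chromosome 7 from 61000001 to 62000000, with 13 lost, 9 kept and 6 gained. Gained peaks were as numerous on chromosome 4 from 190000001 to 191000000 as in the window of chromosome 16, with 11 gained, 5 lost and 4 kept, in a stretch 137 Mb from the centromere gap. Such windows were exceptions among lost and gained peaks. The 5 windows with most lost peaks held 46 of the 885 and the 5 with most gained peaks 44 of the 1307, whereas the leading 5 held 81 of the 456 kept control peaks.

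The 3 strongest lost peaks stood beside the centromeres of chromosomes 8, 4 and 11. The first, on chromosome 8 from 43822204 to 43826469, had 1466 tags, a score of 478 and a fold enrichment of 5.59. The ARID3B antibody gave 1095 tags there in control and 547 in edited cells. An edited KDM4C peak lay 0.192 kb away from it. Second was a peak on chromosome 4 from 49109087 to 49113066, had 942 tags and a score of 319, with the nearest edited peak 6.90 kb away. The ARID3B antibody gave 1612 tags there in control cells and no peak in edited cells. A peak on chromosome 11 from 51586763 to 51587609 had 304 tags and a score of 202, and its ARID3B-antibody tags were 288 in both kinds of cells. Of the 14 lost peaks with a score of 100 or more, 11 lay within 5 Mb of a gap, 6 had an edited peak within 10 kb, and all 14 overlapped an ARID3B-antibody peak. Of all 278 control peaks of that score, 188 lay that near a gap and 274 overlapped ARID3B.

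Of those 14, only 3 lay farther from a gap. On chromosome 4 from 1421315 to 1422239, a peak of 46 tags and fold enrichment 11.2 had its nearest edited KDM4C peak 872 kb away. The ARID3B antibody gave 53 tags there in control cells and a peak of 10 tags in edited cells. On chromosome 2 from 243153611 to 243154909, a peak of 77 tags and fold enrichment 6.33 was lost, and the ARID3B antibody gave 54 and 35 tags. The third, on chromosome 8 from 66563759 to 66564185, had 29 tags and the highest fold enrichment of the 3 (29.4). Lost peaks without any ARID3B-antibody peak were weaker, led by chromosome 9 from 108107069 to 108107511 (24 tags, score 85.8) and chromosome 5 from 97912341 to 97912640 (15 tags, score 84.8).

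Gained peaks reached lower scores than lost ones. The first, on chromosome 3 from 32807500 to 32807612, had 10 tags in 113 bp, a score of 140 and a fold enrichment of 17.5, and the nearest control KDM4C peak was 4736 kb away. The ARID3B antibody called the place with 14 tags in control and 11 tags in edited cells. On chromosome 4 from 49299088 to 49300965, beside the centromere, a gained peak had 195 tags. On chromosome 5 from 3323608 to 3324405, a gained peak had 45 tags and a score of 130, where the ARID3B antibody had 66 and 76 tags. The last of these was called with the other antibody at a similar strength in control cells, where the KDM4C antibody gave no peak. Of the 16 gained peaks with a score of 100 or more, 9 lay within 5 Mb of a gap and 12 overlapped an ARID3B-antibody peak, against 163 and 255 of all 263 edited peaks of that score. The 4 without ARID3B were on chromosome 8 from 128316489 to 128318602 (249 tags, fold enrichment 3.56), on chromosome 7 from 57959699 to 57959825 (10 tags) and from 58039312 to 58039431 (9 tags), and on chromosome 20 from 26312982 to 26313110 (11 tags).

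Pairs with at least 30 tags in both libraries and the most unequal tags differed mainly in how far the peak was called along the chromosome. The highest ratio was found on chromosome 16 from 33922323 to 33922975, with 33 tags in 653 bp in control cells and 80 tags in 1565 bp in edited cells (log2 ratio 1.63 after scaling for depth). On chromosome 2 from 133028304 to 133028650 there were 72 tags in 347 bp and 157 tags in 1451 bp (1.48), while the summits lay 1 bp apart. The lowest ratio was found on chromosome 8 from 126601334 to 126607626, with 613 tags in 6293 bp in control cells and 86 tags in 1027 bp in edited cells (-2.48). On chromosome 1 from 16891841 to 16893927 there were 154 tags in 2087 bp and 45 tags in 596 bp (-1.42). In each of these 4 pairs the library with more tags had the longer peak. Per kb of peak length, the median depth-scaled log2 ratio over all pairs was 0.18.

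A stretch of the long arm of chromosome 8 gathered long peaks of low fold enrichment, a pattern singled out after its values were seen. In the 5 Mb window with most such peaks away from the gaps, from 125000001 to 130000000, there were 14 control and 20 edited KDM4C peaks, of which 9 and 14 were 1000 bp or longer. In all, 34 control and 44 edited peaks of that length lay over 5 Mb from a gap, and chromosome 8 had 9 and 16 of them. The 9 control ones had fold enrichments from 2.88 to 4.45 and 114 to 737 tags. Of these 9, 5 were kept, against 27 of the 34 on all autosomes, with those of chromosome 8 included. From 129363250 to 129366545 there were 737 tags in control cells, and the overlapping edited peak had 387. From 128982352 to 128985984 a control peak of 412 tags and fold enrichment 3.13 was lost, and it had no ARID3B-antibody peak. Of the 16 edited ones on chromosome 8, 11 were gained, against 18 of the 44 on all autosomes, with those of chromosome 8 included.

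Peaks also sat on the first assembled bases of some chromosomes, next to the telomeres. In the first 20 kb, 5 control peaks lay on 5 chromosomes and all 5 were kept, and 5 of 6 edited peaks were kept, a group also picked out after seeing the data. The gained one, on chromosome 18 from 10397 to 10573, had 10 tags and a score of 65.3. The peak at the start of chromosome 5, from 9962 to 11825, had 243 tags in control and 280 in edited cells. At the start of chromosome 1, from 9963 to 10254, the counts were 14 and 20. The start of chromosome 7, from 9951 to 10194, had 12 and 20 tags, and that of chromosome 18, from 9972 to 10334, had 23 and 24. On chromosome 4 from 10002 to 10268 there were 14 and 12 tags. At the starts of chromosomes 4 and 7 neither ARID3B-antibody list had a peak.

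The ARID3B-antibody lists, which the rule for kept, lost and gained peaks did not use, overlapped 432 of the 456 kept control peaks (94.7%, 92.3 to 96.6). They overlapped 160 of the 885 lost peaks (18.1%, 15.6 to 20.8) and 201 of the 1307 gained peaks (15.4%, 13.5 to 17.4). Over all peaks the shares were 44.1% of the control and 35.0% of the edited list. Kept peaks scored higher, and the difference was also present among peaks of like score below 100. For scores under 60 the shares were 81.1% (43 of 53) of kept control, 10.6% (71 of 671) of lost and 10.1% (100 of 988) of gained peaks. From 60 to 100 they were 92.8%, 37.5% and 29.4%. At 100 or more they were 260 of 264 kept control, 14 of 14 lost and 12 of 16 gained peaks, so lost peaks were not below kept ones there.

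**Figure D4:**
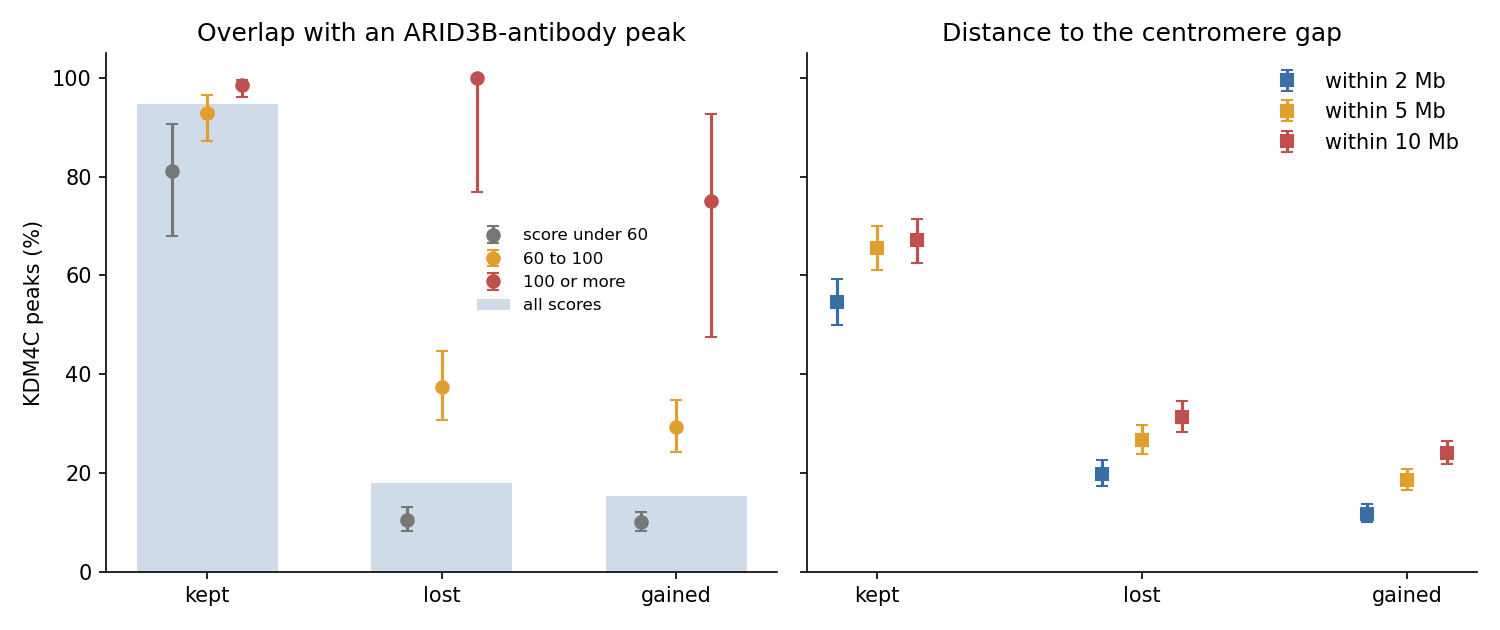
Left, share of kept (control list), lost and gained KDM4C peaks that overlap an ARID3B-antibody peak of either library, for all scores (bars) and by score class (points); right, share within 2, 5 or 10 Mb of a centromere gap; error bars are exact 95% intervals. Kept peaks stand at 94.7% and 65.6% (within 5 Mb), lost peaks at 18.1% and 26.8%, and gained peaks at 15.4% and 18.7%.

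Taken over all peaks of a class, calls of ARID3B in 1 kind of cells alone were about as frequent at lost or gained peaks as at kept ones. Of the 160 lost peaks with an ARID3B-antibody peak, 63 had it in both kinds of cells, 38 in control cells only and 59 in edited cells only. The last 2 counts were 4.29% and 6.67% of all lost peaks, against 3.95% and 8.11% of kept control peaks and 4.18% and 7.16% of all control peaks. Of the 432 kept control peaks with an ARID3B-antibody peak, 377 had it in both kinds of cells, 18 in control cells only and 37 in edited cells only. Of the 201 gained peaks with an ARID3B-antibody peak, 89 had it in both, 34 in control cells only and 78 in edited cells only. The last 2 counts were 2.60% and 5.97% of all gained peaks, against 3.68% and 7.59% of kept edited peaks and 2.87% and 6.37% of all edited peaks. The edited ARID3B-antibody list was the longer one, with 4577 against 3095 autosomal peaks. Whether the edit removed ARID3B and how specific the antibody was were not tested. These calls therefore cannot be taken as presence of ARID3B. Read from the control KDM4C list, 377 of 440 peaks with an ARID3B-antibody peak in both kinds of cells were kept (85.7%, 82.1 to 88.8). With one in control cells only, 18 of 56 were kept (32.1%, 20.3 to 46.0), and with one in edited cells only, 37 of 96 (38.5%, 28.8 to 49.0). These intervals overlap. Without one in either, 24 of 749 were kept (3.20%, 2.06 to 4.73). The median scores of these sets were 119, 68.2, 65.7 and 54.2, so strength moved with the ARID3B calls and its part in the shares was not tested apart from the score classes above.

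The 24 control peaks kept without any ARID3B-antibody overlap had a median score of 62.7. Of these 24, 17 lay within 5 Mb of a gap, against 299 of all 456 kept control peaks (65.6%). An ARID3B-antibody peak was found within 10 kb of 13 of the 24. Among lost and gained peaks without such overlap, the counts were 130 of 725 and 122 of 1106. The leading pair, near the end of chromosome 1 from 249239891 to 249240349, had 26 and 29 tags. Another, on chromosome 12 from 38047553 to 38047665, had 9 tags in each library and lay 0.148 Mb from the gap. Both were named after their values were seen.

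By chromosome, the share of control peaks kept ran from 5.56% on chromosome 13 to 63.6% on chromosome 19, with a median of 37.1%. Gained peaks outnumbered lost ones on 19 of the 22 autosomes and were fewer on chromosomes 7 (61 against 70), 15 (15 against 18) and 21 (13 against 17). Only chromosome 13 had a ratio of edited to control KDM4C peaks whose interval lay above the ratio of the other autosomes, and only chromosome 7 one that lay below it. The ARID3B antibody shared both shifts, with ratios of 5.70 (3.92 to 8.52) on chromosome 13 and 0.778 (0.640 to 0.945) on chromosome 7. On all autosomes it gave 4577 edited and 3095 control peaks. On chromosome 13, 1 of 18 control peaks was kept, 17 were lost and 73 were gained. The gained peaks there ran from 19.9 to 113.9 Mb with a median spacing of 0.649 Mb, had a median of 10 tags and a highest score of 103, and 52 of the 73 scored under 60. Of these 73, 5 overlapped an ARID3B-antibody peak, against 201 of the 1307 gained peaks on all autosomes (15.4%). The ARID3B antibody gave 33 control and 188 edited peaks on chromosome 13. Over all autosomes 988 of the 1307 gained peaks scored under 60, so those of chromosome 13 were not weaker than the rest. Without chromosome 13 the ratio of all autosomal peaks was 1.26, and 1234 peaks were gained. Chromosome 21 was the reverse in placement, with 28 of its 30 control peaks within 5 Mb of the gap and all 13 kept ones among them.

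**Figure D5:**
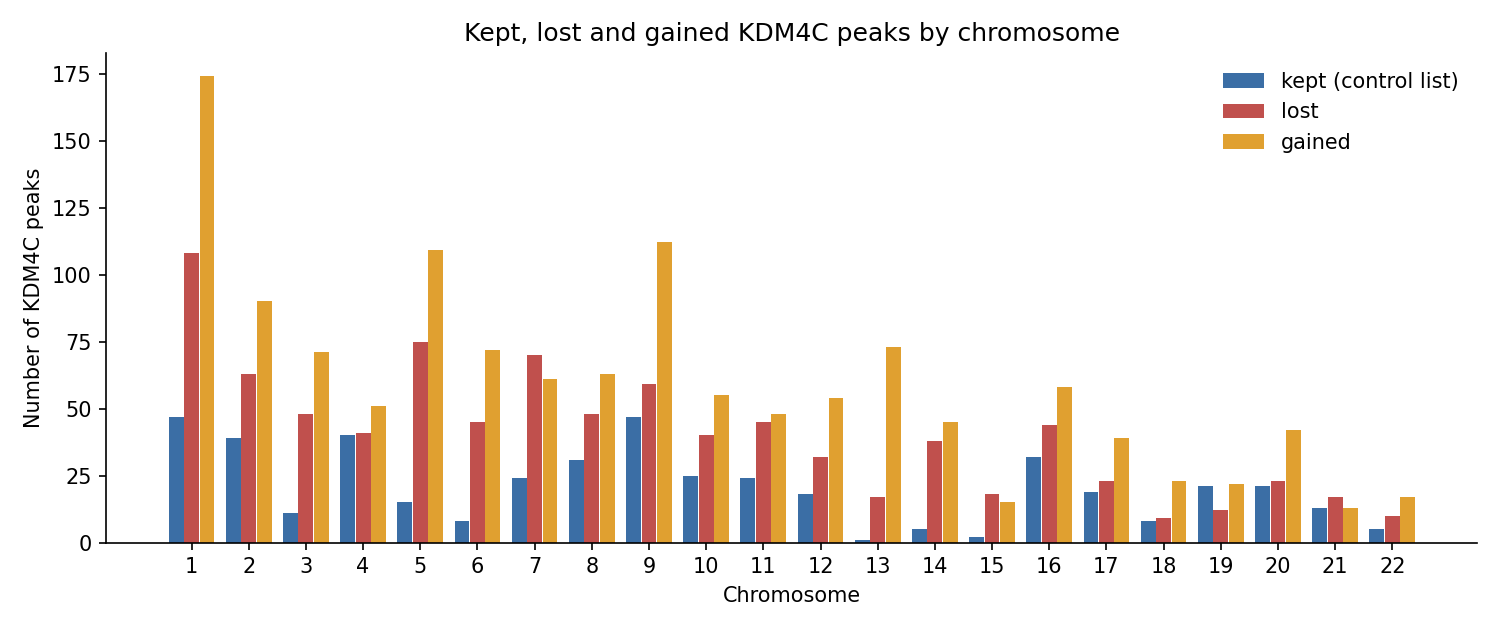
Number of kept (control list, blue), lost (red) and gained (orange) KDM4C peaks on each autosome. Gained peaks outnumber lost ones on 19 of 22 chromosomes, and chromosome 13 shows 73 gained peaks beside 1 kept and 17 lost.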

How the data were processed

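Peaks were called by the authors with MACS 1.4.2 separately for each library and without an input library, per the file headers, with a p-value cutoff of 1e-05, 1 tag allowed per position and local background taken over 10 kb. The submitters' processing notes name bcl2fastq 2.1.5, BWA 0.7.12 and GRCh37. Per the file headers, the deposited tag counts are whole and not normalized. The deposited score is minus 10 times log10 of the p-value, and the deposited fold enrichment relates the summit to local background in the same library as a ratio, so it ranks peaks within a list only. Peak length and summit position are deposited in bp.

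Overlaps, exact intervals and medians were computed with Python 3.11.15, numpy 2.4.6, scipy 1.17.1 and pandas 2.3.3. Scaled tags are per 1000000 filtered tags. The overlap step was tested on simulated data. Distances to centromeres use a table written by hand from knowledge of the build, rounded to 0.1 Mb, of the centromere and adjoining heterochromatin gaps (and unsequenced short arms) of GRCh37. No autosomal peak of the 4 lists lay inside a gap by more than 0.1 Mb. A genome and gene annotation on GRCh37 were not used here, so no gene is named and no peak sequence is printed. Named regions, in rank order, come from the 10 highest scores among lost and among gained peaks. Kept ones come from the 10 control peaks with the highest lower score of control and edited. Others come from the 5 highest among lost and gained peaks without ARID3B and the 5 fullest windows of 1 Mb per class. Pairs with at least 30 tags in both were named from the 5 highest and 5 lowest tag ratios. Exceptions are marked. The members and sets were chosen with earlier results of these data known. Without replicates there is no estimate of spread between samples.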

Additional observations from a re-analysis of the deposited data

Results flagged for a closer look

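Chromosomes X and Y were outside the comparison. The KDM4C antibody gave 49 control and 59 edited peaks on chromosome X and 104 and 90 on chromosome Y. Kept there were 21 of 49 control peaks (42.9%) on X and 71 of 104 (68.3%) on Y.

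On chromosomes 15 and 21 the number of peaks moved in opposite directions with the antibodies. Edited over control peak numbers gave 0.850 for KDM4C and 1.55 for ARID3B on chromosome 15, and 0.833 and 1.58 on chromosome 21. The difference was not tested, and both KDM4C intervals (0.418 to 1.71 and 0.470 to 1.47) included 1.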

How the results depend on the processing

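The shares, ratios and medians were recomputed under 81 alternatives, of which 25 stayed within the main value's interval, 54 left it and 2 turned the direction. For control and edited peaks, the kept shares were 60.6% and 50.4% at scores of at least 60 in both lists, 74.8% and 75.7% at 100 in both lists, and 94.96% and 93.9% where only the list asked was limited to 100. They were 27.8% and 21.4% when the overlap had to cover 50% of each peak, 28.3% and 21.8% with summits within 200 bp, and 36.7% and 27.7% with chromosomes X and Y. Control peaks kept came to 36.8% with ends within 1 kb. Without peaks near centromere gaps the shares were 19.5% and 12.8%, and without peaks overlapping ARID3B 3.20% and 2.12%. Chosen after seeing the data, they were 25.8% and 19.7% without peaks of 1000 bp or longer, and 50.1% for control peaks deep enough after scaling.

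The ratio of peak numbers turned to 0.946 (0.796 to 1.12) at scores of at least 100. It was 1.14 at 60, 1.66 per 1000000 filtered tags and 1.51 away from gaps. The median log2 tag ratio of kept pairs turned to -0.0080 unscaled, and was 0.51 per 1000000 total tags, 0.052 per tags in all peaks, 0.50 away from gaps and 0.18 per kb.

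Overlap with ARID3B, for kept control, lost, kept edited and gained peaks, was 86.6%, 11.4%, 90.1% and 12.8% with the list of the same cells, 81.1%, 10.6%, 72.9% and 10.1% at KDM4C scores under 60, and 90.8%, 12.99%, 90.1% and 11.4% with ARID3B scores of at least 60. Away from gaps, chosen after seeing the data, it was 10.5% for lost and 10.7% for gained peaks. The shares within 2 Mb of a gap were 54.6%, 19.9%, 52.6% and 11.8% in the same order. Within 10 Mb they were 31.4% for lost and 24.1% for gained peaks, and at scores of at least 60 in both lists 49.0% and 31.4%. Away from gaps, kept peaks had medians of 27 tags and 362 bp and lost peaks 245.5 bp and a score of 54.1. With 50% overlap the lost score was 55.4. Kept peaks stood above lost and gained ones in these alternatives for ARID3B overlap and the share near gaps. At KDM4C scores of at least 100 they stood above lost ones in neither. There, 260 of 264 kept control and 14 of 14 lost peaks overlapped ARID3B. Within 5 Mb of a gap lay 177 of the 264 and 11 of the 14. The cause of these moves was not tested beyond the limits that define each alternative. No paired analysis was possible because each group held 1 library. The median of 11 tags at lost and gained peaks limits what a missing call can show.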
